A study of Drosophila melanogaster with 3 samples.

Results

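The cytoplasmic ribosomal protein genes of Drosophila melanogaster were examined in a chromatin immunoprecipitation and sequencing (ChIP-seq) study of the Hox protein proboscipedia (pb). They were taken from the annotation by symbol, as protein-coding genes whose name begins RpL or RpS followed by a digit or by P, which gave 92 of 13945 protein-coding genes, 54 of the large subunit (RpL) and 38 of the small subunit (RpS). The rule takes in 5 genes named -like, and it leaves out Rack1 and sta, which encode proteins of the small subunit under other names. The libraries came from whole, mixed-sex embryos collected 0 to 24 h after laying, from 1 transgenic line that carries pb with GFP at its C terminus. Chromatin was sonicated to 200 to 800 bp and precipitated with an antibody to GFP, in 3 biological replicates that form the only group. No library without the tag was analysed here, so recovery of a promoter through pb-GFP cannot be told apart from recovery without it. Whole embryos also do not resolve which cells a peak came from.

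Ribosomal protein genes encode the protein part of the cytoplasmic ribosome, and nearly every cell transcribes them at a high rate. In flies, loss of 1 copy of many of them gives the Minute phenotype of slow growth and thin bristles. Their promoters are compact, often begin in a polypyrimidine run called the TCT initiator in place of the usual initiator, and are known for the DNA replication-related element (DRE, bound by Dref) and for Motif 1 (bound by M1BP). The pb gene belongs to the Antennapedia complex and specifies adult mouthparts; in embryos it is expressed in the segments of the mouth region.

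Promoters of 5 of the strongest members and of 5 pairs of related genes are printed here. Of the pairs, 3 are a selection from the 11 families with a peak at 1 gene only, and 2 had a peak at both copies. Each line holds 100 bases before the annotated start site and 20 from it, 5′ to 3′ in the direction of transcription, from the RefSeq Release 6 sequence of dm6. Capitals mark a DRE (TATCGATA), a Motif 1 (GGTCACAC, or GTGTGACC where it lies on the other strand), and CTTT whose C lies within 5 bp of the start site, the core of a TCT initiator.
RpS27, chr3R:25247495-25247614, minus strand: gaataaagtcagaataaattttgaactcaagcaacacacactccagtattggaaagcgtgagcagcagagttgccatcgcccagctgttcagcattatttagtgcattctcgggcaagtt
RpL23A, chr3L:1668635-1668754, minus strand: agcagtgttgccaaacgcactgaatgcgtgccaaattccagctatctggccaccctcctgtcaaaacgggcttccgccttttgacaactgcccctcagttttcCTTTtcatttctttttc
RpL14, chr3L:8600906-8601025, plus strand: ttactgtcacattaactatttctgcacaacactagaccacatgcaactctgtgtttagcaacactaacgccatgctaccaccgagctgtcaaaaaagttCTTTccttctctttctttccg
RpL7, chr2L:10200904-10201023, plus strand: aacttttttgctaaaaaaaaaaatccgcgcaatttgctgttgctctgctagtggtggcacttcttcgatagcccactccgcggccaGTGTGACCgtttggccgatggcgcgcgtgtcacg
RpS25, chr3R:11216268-11216387, minus strand: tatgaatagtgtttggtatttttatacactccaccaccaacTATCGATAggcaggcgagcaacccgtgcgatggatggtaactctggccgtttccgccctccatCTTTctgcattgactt
RpS10b, chrX:19597940-19598059, plus strand: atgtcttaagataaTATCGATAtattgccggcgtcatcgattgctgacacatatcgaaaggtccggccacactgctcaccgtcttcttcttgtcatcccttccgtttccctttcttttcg
RpS10a, chr3R:27652660-27652779, plus strand: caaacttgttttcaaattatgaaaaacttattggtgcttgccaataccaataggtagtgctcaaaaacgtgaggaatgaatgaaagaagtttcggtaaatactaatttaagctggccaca
RpS19a, chrX:16637794-16637913, plus strand: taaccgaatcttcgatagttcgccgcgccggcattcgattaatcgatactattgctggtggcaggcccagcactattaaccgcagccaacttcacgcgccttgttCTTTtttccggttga
RpS19b, chr3R:23933511-23933630, minus strand: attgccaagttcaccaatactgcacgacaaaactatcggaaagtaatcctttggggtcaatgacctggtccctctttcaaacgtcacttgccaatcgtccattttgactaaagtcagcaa
RpL10Ab, chr3L:11822751-11822870, plus strand: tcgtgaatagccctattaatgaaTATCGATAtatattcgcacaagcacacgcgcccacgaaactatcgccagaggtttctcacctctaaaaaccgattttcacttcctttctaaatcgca
RpL10Aa, chr3R:15037266-15037385, plus strand: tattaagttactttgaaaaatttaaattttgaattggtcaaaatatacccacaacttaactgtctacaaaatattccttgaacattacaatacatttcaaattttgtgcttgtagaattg
RpS14a, chrX:7933642-7933761, plus strand: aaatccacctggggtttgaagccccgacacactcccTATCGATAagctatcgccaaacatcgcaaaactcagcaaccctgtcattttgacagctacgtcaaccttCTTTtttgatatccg
RpS14b, chrX:7934798-7934917, plus strand: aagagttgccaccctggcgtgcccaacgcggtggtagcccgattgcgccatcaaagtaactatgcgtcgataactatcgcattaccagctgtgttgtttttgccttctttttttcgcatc
RpL34b, chr3R:9401207-9401326, minus strand: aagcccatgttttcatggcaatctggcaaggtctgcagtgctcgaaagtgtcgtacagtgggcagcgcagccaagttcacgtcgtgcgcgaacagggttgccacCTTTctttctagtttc
RpL34a, chr3R:26059248-26059367, minus strand: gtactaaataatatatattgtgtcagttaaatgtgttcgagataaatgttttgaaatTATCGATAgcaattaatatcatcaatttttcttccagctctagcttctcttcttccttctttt
RpS27, RpL23A, RpL14, RpL7 and RpS25 are among the strongest peaks of the set, and their windows share no single motif. RpL23A and RpL14 hold CTTT near the start site, RpL7 holds a Motif 1, RpS25 holds a DRE and CTTT, and RpS27 holds none of these 3 in its window. RpS10b, RpS19a and RpL10Ab had a thresholded peak, whereas RpS10a, RpS19b and RpL10Aa had none. Both RpS14 and both RpL34 genes had such a peak. In the first 3 pairs only the copy with a peak holds a marked motif. This was not so in the other families with 1 gene at a peak. There RpL7-like, RpL24-like and RpS15Ab, without a peak, hold a DRE, RpL22-like a Motif 1, and RpL37-2 and RpS5b CTTT. No gene of the RpLP0 and RpS28 families holds any of the 3 motifs. The printed pairs thus do not show that these motifs separate family genes with and without a peak.

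A thresholded peak lay nearest to the start site of 63 of the 92 genes (68.5%), beside 15.0% of all protein-coding genes. The thresholded list holds the 2740 strongest regions of a list called on the 3 replicates combined, and a region was given to the protein-coding gene whose start site was nearest to its summit, the position of highest signal. By the same measure in the 2740 strongest regions of each replicate, 64, 57 and 62 members were nearest in replicates 1, 2 and 3 (61.0 ± 3.61, SD, n = 3), where the shares of all protein-coding genes were 15.1%, 14.8% and 14.8%. The share of members thus lay far above that of all genes in every library, by much more than the spread between libraries. Of the members, 53 were nearest to a top region in all 3 replicates and 69 in at least 1, and none of the 63 was absent from all of them. The replicates also supplied the combined list, so these counts describe its make-up and are not independent of it. The shares of all genes in all 3 replicates and in at least 1 are not given here.

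The members' peaks were stronger than the list as a whole. The 63 genes held 67 of the 2740 peaks, 41 at RpL and 26 at RpS genes, and each peak was ranked within its list by the authors' signal value, with rank 1 the strongest. The median rank was 655 for members' peaks and 1370.5 for all peaks. The stronger 1370 peaks held 52 of the 67 (77.6%). Member peaks made up 6.0% of ranks 1 to 100, 5.0% of ranks 101 to 500, 3.6% of ranks 501 to 1000, 2.2% of ranks 1001 to 1500, 1.0% of ranks 1501 to 2000 and 0.946% of ranks 2001 to 2740. Their share therefore fell steadily with rank. Within the 100 strongest regions of a replicate, 8, 1 and 4 belonged to members in replicates 1, 2 and 3, so the very top of the list differed between libraries.

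**Figure D1:**
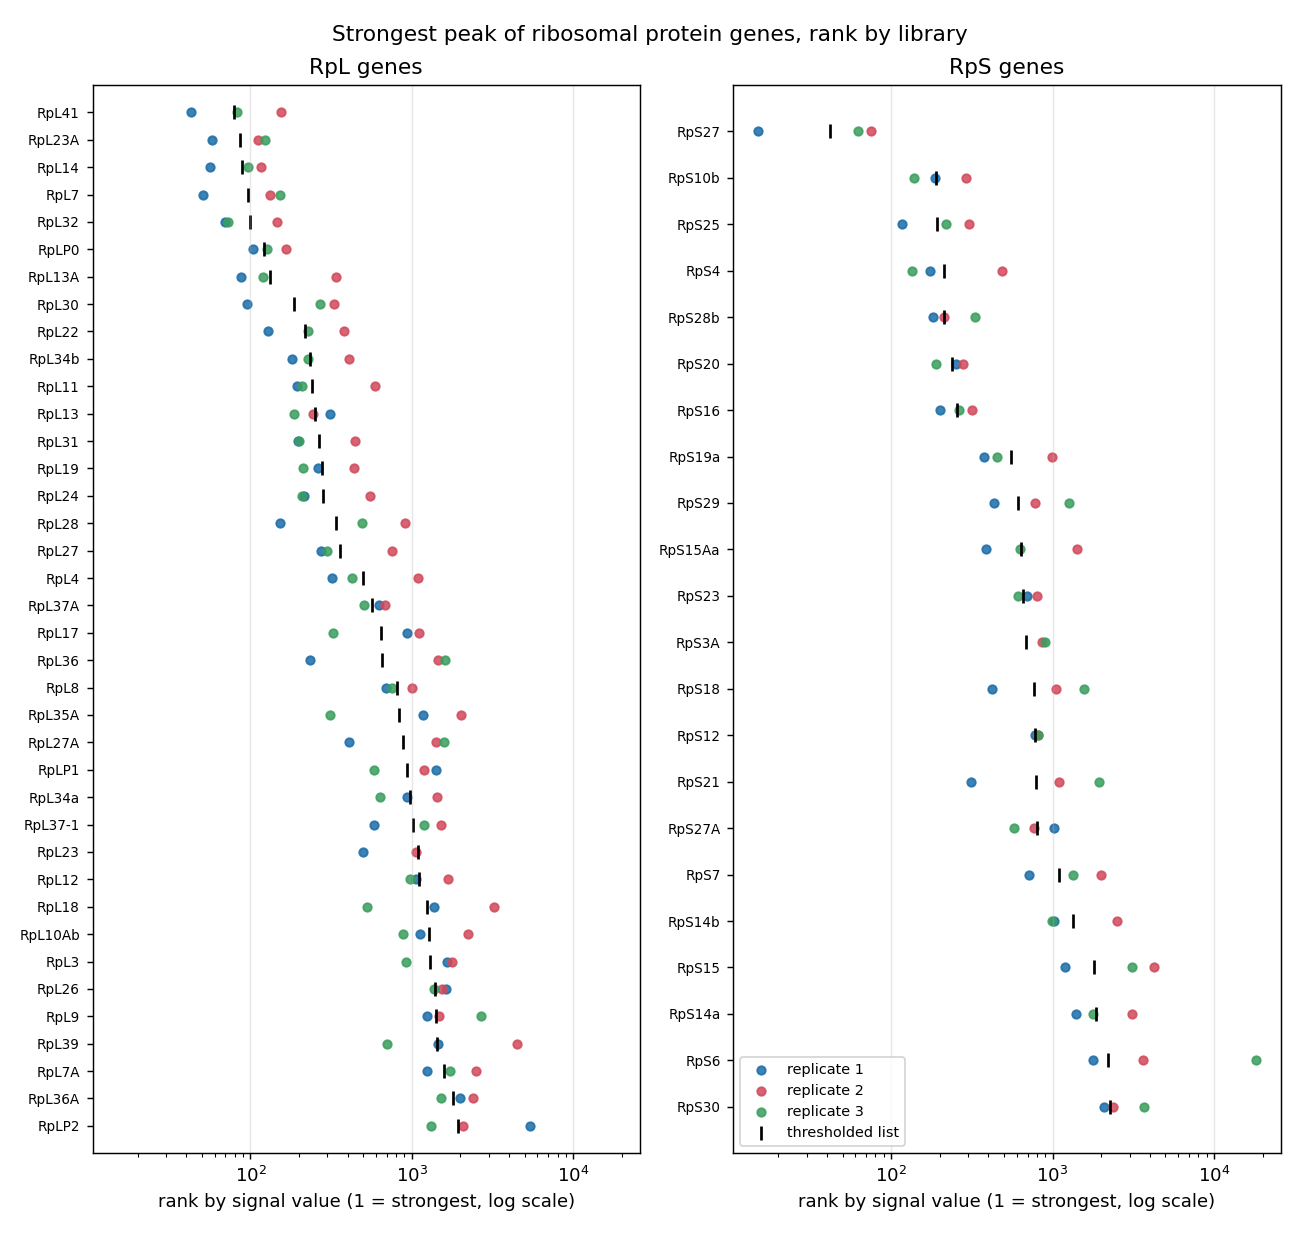
Rank of the strongest peak of the reported ribosomal protein genes with a thresholded peak, with RpL genes on the left and RpS genes on the right; the x axis is the rank by signal value (1 = strongest, log scale), coloured points are the 3 replicates and the black tick is the rank in the thresholded list. RpS27 stood first at rank 42, and most points of replicate 2 lie to the right of the other replicates of the same gene; points with no summit within 100 bp are not drawn.

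RpS27, a zinc-binding protein of the small subunit, had the strongest peak of the set at rank 42 in the thresholded list, and its ranks were 15, 75 and 62 in replicates 1, 2 and 3. RpL41, the smallest ribosomal protein, was at rank 79 and at 43, 154 and 82 in the replicates. RpL23A, which sits at the exit of the peptide tunnel, was at rank 86 and at 58, 112 and 123. All 3 were most highly ranked in replicate 1, and no library placed any of them below rank 154. RpL14 followed at rank 89 (56, 116 and 97 in replicates 1, 2 and 3). RpL7 was at rank 96 (51, 132 and 153), and RpL32, a gene long used as an expression standard in flies, at rank 100 (70, 146 and 73). These large-subunit genes repeated the order of the first 3, with replicate 1 the strongest in each. RpL13A was at rank 133 (88, 337 and 120), and here replicate 2 stood apart from the others. Among RpS genes the next after RpS27 were RpS10b at rank 191 (187, 292 and 138) and RpS25 at rank 193 (117, 305 and 219). The 2 could not be ordered, since RpS10b was ahead in replicates 2 and 3 and RpS25 in replicate 1.

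The stalk that recruits translation factors is built from RpLP0, RpLP1 and RpLP2, and their peaks differed widely. RpLP0, the base of the stalk, was at rank 121, with 103, 165 and 127 in replicates 1, 2 and 3. RpLP1 was at rank 933, with 1407, 1181 and 579. RpLP2 had 2 weak peaks, 1 at rank 1933 (5403, 2080 and 1322) that lay 2080 bp before its start site and 1 at rank 2555 (1971, 1706 and 23093) that lay 215 bp after it. RpLP0 was ahead of both partners in every library, with no overlap of the ranks. RpLP2 was also the only member whose strongest summit lay over 1000 bp from a start site.

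Ranks varied between libraries by gene. RpS12, which in flies is required for competition between Minute and normal cells, had one of the smallest spreads at rank 779, with 780, 817 and 807 in replicates 1, 2 and 3. RpS23, a protein near the decoding centre, was at rank 655 (697, 800 and 609), and RpL26 at rank 1396 (1622, 1544 and 1364). These 3 had the smallest SD of log2 rank over the libraries, taking the strongest peak of each gene. The largest on that measure were at RpL35A, at rank 831 (1179, 2010 and 312), at RpL36, at rank 653 (233, 1460 and 1606), and at RpS6. RpS6, the substrate of S6 kinase, was at rank 2195 (1789, 3649 and 18119), so that replicate 3 placed it far below the threshold. RpS30, another of the weakest members, was at rank 2284 (2095, 2364 and 3691).

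Replicate 2 ranked the members lower than the other libraries did. The median ranks of the members' peaks were 436, 1001 and 587 in replicates 1, 2 and 3, while those of all thresholded peaks were 1357, 1370.5 and 1429. Of the 64 member peaks with a summit within 100 bp in all 3 replicates, 44 (68.8%) had their weakest rank in replicate 2, against 24.7% of 2421 such peaks in all. The best rank was in replicate 1 for 37 of them and in replicate 3 for 24, and in replicate 2 for 3 (4.69%, against 34.1% of all). The ribosomal protein genes thus took a different position in replicate 2 relative to the rest of the list. The number of regions was 30000 in each replicate list, and the regions at the ceiling of the authors' q value were 1199, 1587 and 2523 in replicates 1, 2 and 3; the part of such differences between libraries in this result was not tested.

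Most of the members' peaks had a summit close by in every replicate. A summit within 100 bp was present in all 3 replicates for 64 of 67 member peaks (95.5%), against 88.4% of all thresholded peaks. For 52 of 67 (77.6%) that summit was among the 2740 strongest in every replicate, against 46.7% of all. The replicates supplied the combined list, and the thresholded regions were kept by a measure of reproducibility. Members' peaks also ranked higher in it. Both shares, and the shifts given next, are thus not independent of that choice or of rank. The median shift between the thresholded and the replicate summit was 9, 6 and 11.5 bp in replicates 1, 2 and 3 for members and 16, 11 and 13 bp for all peaks. The 3 unmatched peaks included RpS3A in replicate 1 and RpL23 in replicate 3. RpS3A is the only member on chromosome 4, where replicate 1 had 26 regions and replicates 2 and 3 had 128 and 181. Its peak was at rank 685, with 864 and 892 in replicates 2 and 3.

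Peaks lay on the start sites. The median distance from summit to nearest start site was 21 bp for the members' peaks and 385 bp for all peaks. Of the 67, 55 (82.1%) lay within 50 bp, against 17.3% of all, and 63 (94.0%) within 200 bp, against 41.1%. In the top regions of replicates 1, 2 and 3 the members' median distance was 28, 20 and 28 bp (25.3 ± 4.62, SD, n = 3), and that of all regions was 432.5 ± 48.9 bp. The difference was many times the spread between libraries. Summits within 1000 bp of a start site lay at a median of -12 bp for members, with quartiles of -32 and 4 bp, where negative positions are upstream, and at -59 bp for all peaks, with quartiles of -187 and 26 bp. The share upstream was 70.8% for members and 69.3% for all, so the members differed in how near the summit lay and hardly in its side.

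**Figure D2:**
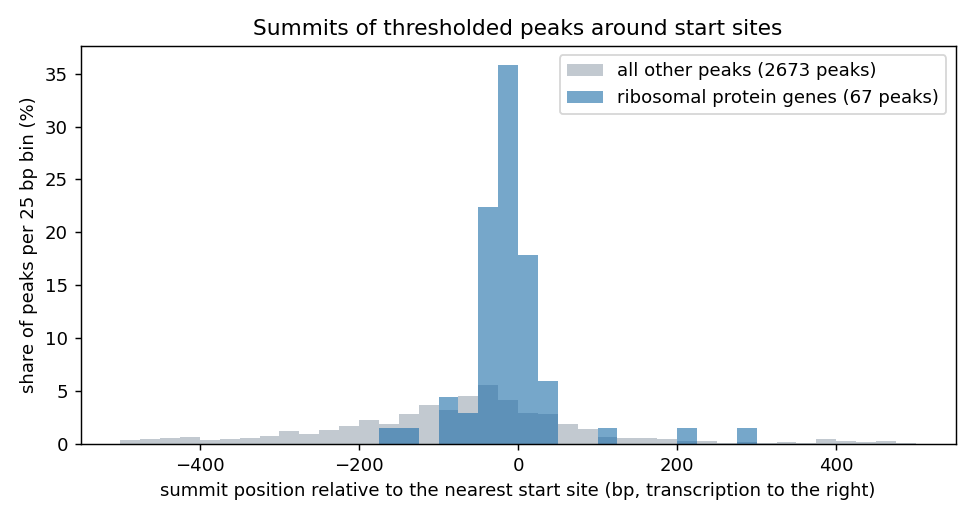
Positions of thresholded summits relative to the nearest protein-coding start site (x axis, bp, transcription to the right) as the share of peaks in each 25 bp bin (y axis), for 67 peaks of ribosomal protein genes in blue and the 2673 other peaks in grey. The members' summits gather in the 50 bp on either side of the start site, where 55 of 67 lie, while the others spread more widely, mostly upstream.

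Most of these promoters were not shared with another gene. Of the 63 member summits within 200 bp of a start site, 8 (12.7%) also had the start of another protein-coding gene within 200 bp, against 225 of the 1127 such summits in all. The 8 were at RpS27 with Nup37, RpL41 with NaCP60E, RpL14 with Nelf-E, RpL7 with Ripalpha, RpS20 with CG17271, RpL13 with Dref, RpL19 with CG3776 and RpS27A with Ip259. At these the peak cannot be given to 1 gene by position alone. RpS27A, a fusion of ubiquitin with a small-subunit protein, begins at the same base as Ip259, and the peak 44 bp from both, at rank 803, was counted for each. Dref, next to RpL13, encodes the factor that binds the DRE.

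The shares of members and of all genes were also followed down the lists, with any start site of a gene within 200 bp of a summit counted. A start site lay within 200 bp of a thresholded summit for 62 members (67.4%), beside 9.57% of all protein-coding genes, and within 200 bp of a summit of the combined list of 30000 regions for 82 members (89.1%), beside 35.1%. In the full lists of replicates 1, 2 and 3 the counts were 75, 78 and 83, beside 28.3%, 34.1% and 37.1% of all genes. Among the 500 strongest regions of each replicate, 30.4 ± 7.84% of members and 1.80% of all genes had such a summit (SD over 3 libraries), and among the 5000 strongest 72.8 ± 3.92% and 14.2%. Most members outside the thresholded list therefore still stood at a weaker region.

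**Figure D3:**
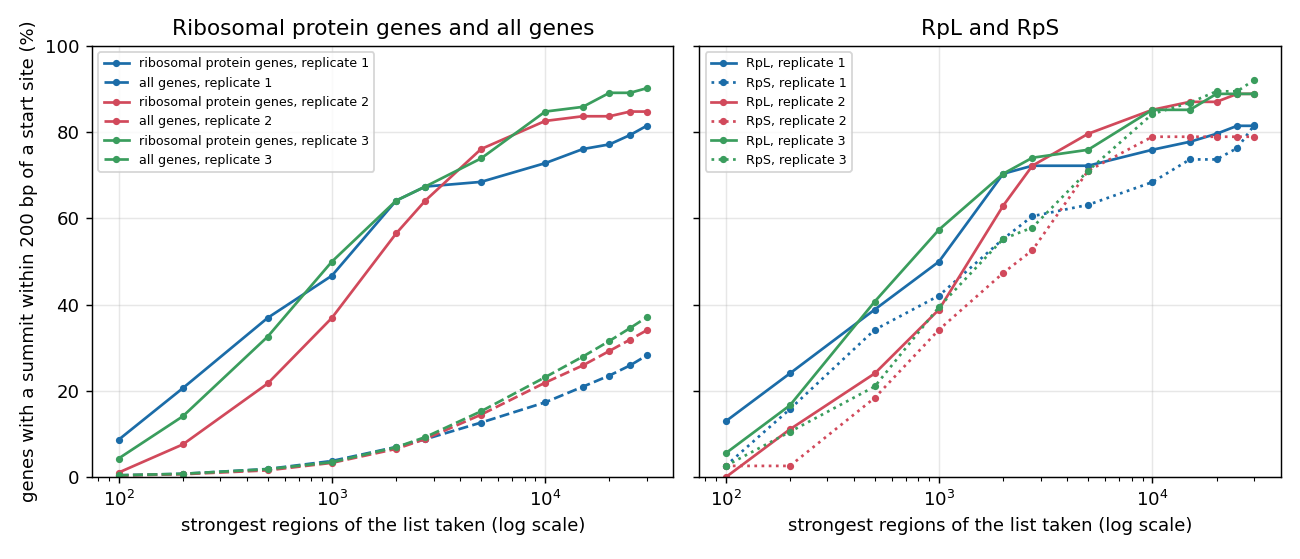
Share of genes with a summit within 200 bp of a start site (y axis, %) as more of the strongest regions of each replicate list are taken (x axis, log scale), for ribosomal protein genes and all protein-coding genes (left) and for RpL and RpS genes (right), with 1 line per replicate. At 5000 regions the members reach 72.8% on average over the replicates and all genes 14.2%, and RpL lies above RpS between 500 and 5000 regions in each replicate.

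The share of genes at a thresholded peak was higher for the large subunit than for the small, and the difference depended on the threshold. Of the RpL genes 39 of 54 (72.2%) and of the RpS genes 24 of 38 (63.2%) were nearest to a thresholded peak, a difference of 9.06 percentage points. It was 16.7 points when replicate 1, 2 or 3 was left out, where only 1619, 1454 and 1624 of the 2740 peaks were kept. The shorter list and the missing replicate cannot be told apart there. Among the top regions of replicates 1, 2 and 3 the RpL counts were 40, 38 and 40 (72.8 ± 2.14%, SD, n = 3) and the RpS counts 24, 19 and 22 (57.0 ± 6.62%). The difference was 10.9, 20.4 and 16.2 points (15.8 ± 4.74), in the same direction in every library. In the full combined list it had the other sign, with 46 of 54 RpL genes (85.2%) and 36 of 38 RpS genes (94.7%), a difference of -9.55 points, and in the full replicate lists it was 2.21 ± 6.88 points, less than its spread. With any start site within 200 bp counted, the difference exceeded its SD over libraries from the strongest 200 regions (7.63 ± 1.30 points) to the strongest 10000 (4.91 ± 3.46). It did not among the strongest 100 (3.54 ± 6.50), nor from the strongest 15000 (3.51 ± 4.90) to the full lists. The same genes are counted in every library, so this SD does not measure the spread between genes. Median ranks of their peaks were 640 for RpL and 726 for RpS, and median summit positions -14.5 and -4 bp.

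Genes of the same family were unlike in their peaks. Among 13 families of related genes with 27 members, exactly 1 gene had a thresholded peak in 11 families and both genes had one in 2, and no family was without. The genes with a peak included RpL7, RpL10Ab, RpL22, RpL24, RpL37-1, RpLP0, RpS10b, RpS15Aa, RpS19a and RpS28b. Those without included RpL7-like, RpL10Aa, RpL22-like, RpL24-like, RpL37-2, RpLP0-like, RpS10a, RpS15Ab, RpS19b, RpS28a and RpS28-like. In each of the 3 replicates the closest summit of the gene with a peak had the better rank in 11 of 11 families; the combined list that chose the gene was made from the same replicates. Families were formed by gene name and protein identity was not computed, so a -like gene is not shown here to be a copy of the ribosomal protein. How reads that match several genes of a family were placed is not given in the sources used here.

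The family genes without a peak include genes known for use in the germ line. RpS19b, a germline copy in flies, had its closest summits at ranks 618, 9246 and 15599 in replicates 1, 2 and 3, of which the first lay 854 bp from its start site, and RpS19a had 377, 988 and 455. RpL22-like, a testis copy, had 12302, 26453 and 24945, which lay 1562, 5025 and 1536 bp away, and RpL22 had 129, 381 and 227. The ranks of the paired copies did not overlap for RpL22, and for RpS19 they overlapped through the 1 distant summit in replicate 1. RpS10a had 15197, 16040 and 12533, all beyond 200 bp, against 187, 292 and 138 for RpS10b. RpL10Aa had 20458, 10604 and 25576, all beyond 200 bp, against 1116, 2223 and 878 for RpL10Ab. RpLP0-like differed from the other family genes without a peak, since a summit at rank 501 (522, 688 and 444 in the replicates) lay 67 bp from its start site. That summit was nearer to the start of 14-3-3zeta on the other strand, and was assigned to it.

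Both copies were at peaks in 2 families. RpS14a and RpS14b, which stand next to each other on chromosome X with starts at 7933742 and 7934898 (dm6), were at rank 1869 (1404, 3107 and 1777 in replicates 1, 2 and 3) and at rank 1342 (1028, 2515 and 994). RpS14b was ahead of its neighbour in all 3 libraries, and only RpS14a of the pair holds a DRE in the printed windows. RpS14a holds CTTT within 5 bp of the start, and RpS14b holds CTTT just past that limit, so this motif hardly separates them. RpL34b was at rank 235 (180, 410 and 226), and RpL34a, elsewhere on chromosome 3R, at rank 970 (935, 1430 and 633). Here too the order was the same in every library, with RpL34b holding CTTT near its start and RpL34a a DRE.

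**Figure D4:**
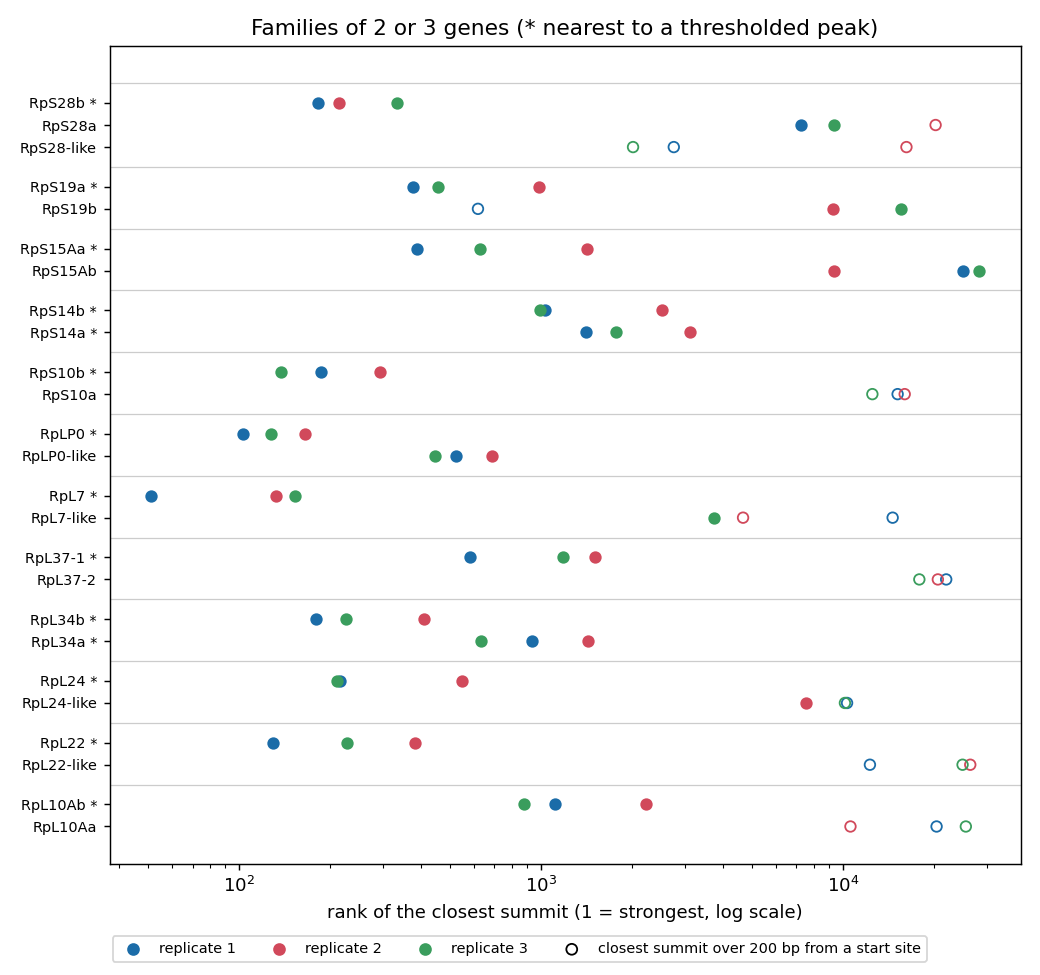
Rank of the closest summit in each replicate (x axis, 1 = strongest, log scale) for the reported genes of families (y axis); filled points lie within 200 bp of a start site of the gene, open points farther away, and an asterisk marks genes nearest to a thresholded peak. Except in RpS14 and RpL34, 1 gene of each family sits to the left with filled points. The other genes of those families sit at rank 3745 or beyond, apart from RpLP0-like and the open points of RpS28-like and RpS19b.

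The 4 members with 2 peaks each showed 1 peak at the start site and a weaker one, except RpLP2. RpL26 had its second peak at rank 2634 (8089, 1982 and 4806 in replicates 1, 2 and 3), 15 bp from another of its start sites. RpS18, at rank 767 (421, 1056 and 1565), had its second peak at rank 2299, 112 bp after a start site. RpS15Aa, at rank 635 (387, 1422 and 630), had its second at rank 2651, 2665 bp from a start site and beyond the end of the gene. In these 3 genes the second peak was the weaker in the thresholded list and in every replicate. The 2 regions of RpL26 overlap, as do the 2 of RpS18, and each region was counted as a peak. Whether such a pair is 1 enrichment was not tested.

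No thresholded peak was nearest to 29 members, 15 RpL and 14 RpS, among them the 5 -like genes. Of these, 20 had a summit of the combined list within 200 bp of a start site, and for 19 of the 20 it fell below the threshold, at ranks from 2919 to 26035 with a median of 6739. The share over all protein-coding genes was 35.1%, and that over all genes without a thresholded peak is not given here. Just below the threshold came RpL35 at combined rank 2919 (6543, 4126 and 1846 in replicates 1, 2 and 3). RpS26 was at combined rank 3300 (2632, 5998 and 2784). Each of these lay within the strongest 2740 regions of 1 replicate. In all, 6 members were nearest to a top region of some replicate without a thresholded peak, among them RpL5, RpL6, RpL35, RpS24 and RpS26.

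The remaining members without a peak ranged from weak to none. RpS13, RpS24, RpL15, RpL6, RpL10 and RpS2 had a combined summit within 200 bp at ranks from 4251 to 5225, and RpS15Ab, RpS28a, RpL38, RpL24-like, RpS10a, RpS3, RpS19b, RpS9 and RpL7-like at ranks from 9112 to 26035. The 9 without a combined summit within 200 bp included RpL5, RpL21, RpL29, RpL40, RpL10Aa, RpL22-like, RpL37-2 and RpS28-like. RpL40, the other ubiquitin fusion of the ribosome, had its closest summits 635, 632 and 463 bp away at ranks 8991, 21578 and 23252, while the fusion genes RpS27A and RpS30 both had thresholded peaks. In 11 of the 29 genes all 3 replicates had a summit within 200 bp, and in 6 none had. The shares of all genes on these measures are not given here. For RpL5, which with RpL11 binds 5S rRNA, the replicate summits lay 15, 2 and 13 bp from a start site at ranks 2354, 5688 and 8395, although the combined list had none there. RpL10, RpL15, RpL21, RpL5 and RpL38, named after their values were seen, were the members farthest from any thresholded summit, at 216575, 4388359, 223185, 512002 and 1457968 bp. RpL15, RpL5 and RpL38 are known as genes of pericentric heterochromatin; mapping in such regions was not tested.

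The surroundings of members with and without a peak were counted over the annotation. A protein-coding start on the opposite strand lay within 1000 bp of 42 of 63 members with a peak (66.7%) and of 13 of 29 without (44.8%), and of 36.9% of all protein-coding genes. A small nucleolar RNA gene lay inside 24 of the 63 (38.1%) and inside 4 of the 29 (13.8%), and the share over all genes is not given here. The median gene length was 1428 bp in the 63 and 1073 bp in the 29, and the part of length in this difference was not tested. Fly ribosomal protein genes often carry these guide RNAs of rRNA modification in their introns. By chromosome, 13 of 14 members on X had a peak, 11 of 19 on 2L, 14 of 21 on 2R, 10 of 14 on 3L and 14 of 23 on 3R, beside 16.7%, 14.1%, 15.2%, 14.9% and 14.9% of all genes on these arms. These are counts over genes in 1 genome and carry no test.

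Motifs of ribosomal protein promoters were counted in 250 bases before to 50 after the start site used by most transcripts. CTTT with its C within 5 bp of the start site, read on the sense strand, was present in 44 of 92 members (47.8%), beside 5.63% of all protein-coding promoters. Its C lay at a median of 4 bases after the annotated start, and within 1 bp of it in 4 members (4.35%, beside 1.18%). The DRE, read on both strands like Motif 1, was present in 28 (30.4%, beside 9.23%) and Motif 1 in 13 (14.1%, beside 7.79%). The E-box CACGTG, bound by Myc and Max, was in 10 members, all of them RpL genes (10.9%, beside 4.20%). TAATTA, the core read by many Hox proteins, was in 24 (26.1%, beside 20.1%) in this window, but in 4 (4.35%, beside 6.74%) from 100 bases before to 50 after the start site, so that its direction against all promoters turned with the window. GAGAG, bound by GAGA factor, was in 16 (17.4%, beside 30.2%). CTTT, the DRE, Motif 1 and the E-box were thus commoner in members than in all promoters, and GAGAG was rarer.

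The same letters were then counted in members with and without a peak. CTTT was in 49.2% of the 63 members with a peak and in 44.8% of the 29 without, and Motif 1 in 14.3% and 13.8%. The DRE was in 34.9% and 20.7%, the E-box in 7.94% and 17.2%, and GAGAG in 15.9% and 20.7%. TAATTA was in 20.6% and 37.9%, but in the shorter window in 2 genes of either set. CTTT and Motif 1 thus had nearly equal shares, the DRE the higher share among members with a peak, and the E-box, GAGAG and, in the longer window, TAATTA the higher share among those without. Among members with a peak, the median best rank with and without each motif was 716 and 566 for the DRE, 566 and 646.5 for Motif 1, and 566 and 711 for CTTT. It was 235 and 670 for the E-box, 878 and 587 for TAATTA, and 508 and 655 for GAGAG. The medians with a motif rest on 22 genes for the DRE, 9 for Motif 1 and 31 for CTTT. Those for the E-box, TAATTA and GAGAG rest on 5, 13 and 10 genes. No spread over libraries is given for these medians, so no order of peak strength by motif is drawn.

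**Figure D5:**
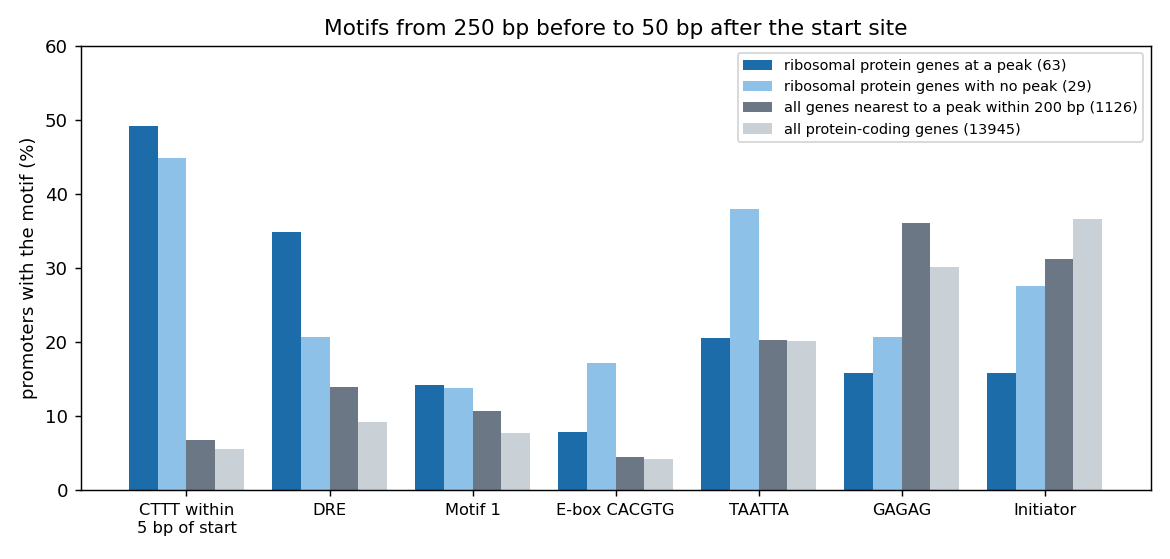
Share of promoters (y axis, %) that hold each motif from 250 bp before to 50 bp after the start site, for ribosomal protein genes at a peak (63), ribosomal protein genes with no peak (29), all genes nearest to a peak within 200 bp (1126) and all protein-coding genes (13945). CTTT within 5 bp of the start is at 49.2% and 44.8% in the members. It is at 6.84% and 5.63% in the sets of all genes, which include members. TAATTA, whose counts fell to 2 and 2 members in a shorter window, is at 20.6% in members with a peak and 37.9% in members without.

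Around the summits themselves the same letters recurred. Within 100 bp of the summit a DRE lay at 20 of 67 member peaks (29.9%), beside 4.42% of all thresholded peaks and 9.94% of those within 200 bp of a start site. A Motif 1 lay at 9 (13.4%), beside 2.48% and 5.15%. TAATTA lay at 2 (2.99%), beside 12.3% and 12.1%, and GAGAG at 8 (11.9%), beside 28.9% and 26.4%. The shares at member summits were thus higher for the DRE and Motif 1, and lower for the Hox core and GAGAG, than at all summits and at all start-site summits. In the members' promoters the DRE stood at a median of -56 bp from the start site and Motif 1 at -17 bp. A match of letters is a description and does not show that a factor is bound.

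Rack1 and sta, ribosomal proteins outside the symbol rule, were both at thresholded peaks. Rack1, a signalling scaffold on the small subunit, was at rank 589 (418, 854 and 716 in replicates 1, 2 and 3), 7 bp from its start. The other, sta, was at rank 1280 (481, 2818 and 3685), 38 bp from its start. Both had their best rank in replicate 1, and sta fell outside the top 2740 regions of replicates 2 and 3.

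Genes of related function were counted in the same way. Of 73 mitochondrial ribosomal protein genes 8 (11.0%) were nearest to a thresholded peak, near the 15.0% of all genes, with 7, 11 and 8 in replicates 1, 2 and 3. Of 51 genes of translation initiation and elongation factors 15 (29.4%) were, with 11, 16 and 12 in the replicates. Of 16 ribosome biogenesis genes Fib, the rRNA methyltransferase, and Nopp140, a nucleolar scaffold, were. Of 8 genes for factors tied to ribosomal protein promoters, Trl (GAGA factor), Myc and Mnt were, with summits a median of 1534 bp from a start site. Dref, M1BP, Trf2, BEAF-32 and Max were not, although Dref has a start within 200 bp of the summit assigned to RpL13. The replicates gave 5, 3 and 3 of these 8 genes. In each replicate the cytoplasmic ribosomal protein genes, at 57 to 64 of 92, had a larger share than any of these lists.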

How the data were processed

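ChIP-seq peak lists from 3 biological replicates of 1 group were analysed, on dm6. Per the labels and the deposited notes, regions were called on each replicate and on the replicates combined, each against a control that was not analysed here, and the thresholded list holds the regions kept by the irreproducible discovery rate. Which aligner and caller were run is not given in the sources used here. The signal value per region is the authors' own; its scaling is not given, so it was used only to rank regions within a list. The −log10 q value per region in the deposited files has a ceiling, and regions at it were counted. The summit is the deposited offset from the region's start. The depth of the libraries is unknown, and intervals for counting error are not given. The lists on dm3, signal tracks and reads were not analysed here.

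Genes and start sites came from Ensembl release 115 (BDGP6.54; 19607 protein-coding start sites). Each summit went to the nearest protein-coding start site, with ties given to every tied gene. Top regions of a replicate are its 2740 strongest. A replicate summit within 100 bp counted as shared. Promoter sequence came from RefSeq Release 6, at the start site of most transcripts, a choice made after the data were seen. Python 3.11.15, pandas 2.3.3 and numpy 2.4.6 were used, and the assignment was tested on simulated summits. Members, gene lists and families were chosen with earlier results of these data known. Genes were named as the best ranked, the weakest, the most and least variable over libraries, the stalk, family and ubiquitin fusion genes, those with several peaks and those with none. With 1 group there is no contrast and no test; SD is over the 3 libraries, and genes are not replicates. Alternatives were other thresholds, assignments, start sites, windows and matching distances, and leaving out each replicate. Results for some genes are not reported here, though the counts include them.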

Additional observations from a re-analysis of the deposited data

How the results depend on the processing

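The count of 63 ribosomal protein genes at thresholded peaks was 52 in the stronger 1370 peaks (beside 8.38% of all genes). It was 70 in the strongest 5000 regions of the combined list (beside 23.4%). Leaving out replicate 1, 2 or 3 kept 1619, 1454 and 1624 of the 2740 thresholded peaks. The count was then 55 each time (beside 9.04% to 9.87%), and 52 genes were kept in all 3 of these lists. With 1 gene per tied peak, an alternative added after seeing the data, the count was 62. The difference of 9.06 percentage points between RpL and RpS shares moved to 16.7 points without replicate 1, 2 or 3, with 36 RpL and 19 RpS genes each time. Whether the missing replicate or the shorter list moved it was not tested. The median summit distance of 21 bp moved to 33 bp when only the most upstream start site of each gene was used. The count of promoters with TAATTA moved from 24 to 4 in a shorter window, 100 bp before to 50 after the start site, where its share turned from above that of all genes (26.1% and 20.1%) to below it (4.35% and 6.74%). The other 36 of 41 recomputed values kept within 1.5 times the count or within 1 SD over libraries. No paired analysis was possible because the study has 1 group. Depth is unknown, so absence of a peak was not read as absence of binding.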
